A study of Mus musculus with 7 samples.

Results

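Tissue macrophages were followed through mouse adrenal development by 10 marker genes: Csf1r, Adgre1, C1qa, C1qb, C1qc, Cd68, Laptm5, Ctss, Mrc1 and Lyve1. They were chosen by symbol from the table of normalized read counts, and all 10 were found among its 35976 genes. The table holds 7 RNA-seq libraries of adrenal glands of the C57BL/6J strain, with no genetic change or treatment in any group. Each library is 1 pool. It was made from 40 glands at E18.5, late in gestation (sex not determined), 16 glands of males and 22 of females at postnatal day 1 (P1), 6 of males and 6 of females at 2 weeks, and 4 of males and 4 of females at 12 weeks. The labels give age and sex and state no other aim.

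Tissue macrophages are long-lived phagocytes that clear dying cells and debris, and in the adrenal gland they lie along the sinusoids between the steroid-producing cells. Their survival depends on the receptor CSF1R, which binds the ligands CSF1 and IL34. Their shared genes cover surface receptors, the complement starter C1q and the digestive machinery of the lysosome. MRC1 and LYVE1 are carried by subsets of resident macrophages and also by some endothelial cells.

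Depth ranged from 15184210 reads in genes (12-week male) to 23551289 (P1 male) per library. The fewest reads behind any value of a member were 61, for Lyve1 in the 12-week female library. Each age after birth had 1 male and 1 female pool, which the labels do not tie to separate litters. The fit takes out a constant difference between the sexes. The p-values for age thus set the difference between ages against how far that sex difference varied between ages. The variances are drawn toward a trend over all genes. The spread between replicate pools of the same age and sex was not measured. The library labelled P1 female held Y-linked reads at 21% (median of 4 genes) of the level in the P1 male library, against 0.0831% in the 2-week and 0.0203% in the 12-week female library. Calls among the members, and the counts of each list from P1 to 2 weeks, are given with and without it. In whole glands, fewer macrophages and less RNA per macrophage cannot be told apart.

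Promoter sequence was in the RefSeq table (build GRCm38.p6) for 6 of the 10 members: Cd68, C1qb, C1qc, Ctss, Laptm5 and Mrc1. PU.1, encoded by Spi1, is the transcription factor on which macrophage identity rests, and many macrophage promoters carry its core letters GAGGAA in place of a TATA box. The 250 bases before the start are printed for 3 members as examples, 1 C1q chain and 2 lysosomal genes. They were taken because these windows end before the first annotated exon of the gene. Capitals mark GAGGAA or its reverse complement TTCCTC. The windows lie at chr4:136886201-136886450 (C1qb, minus strand), chr11:69666171-69666420 (Cd68, minus strand) and chr3:95526536-95526785 (Ctss, plus strand).
C1qb: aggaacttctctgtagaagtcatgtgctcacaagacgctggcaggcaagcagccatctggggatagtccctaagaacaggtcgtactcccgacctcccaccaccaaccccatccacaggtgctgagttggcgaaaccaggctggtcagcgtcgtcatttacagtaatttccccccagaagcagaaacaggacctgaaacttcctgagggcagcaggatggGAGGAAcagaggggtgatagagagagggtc
Cd68: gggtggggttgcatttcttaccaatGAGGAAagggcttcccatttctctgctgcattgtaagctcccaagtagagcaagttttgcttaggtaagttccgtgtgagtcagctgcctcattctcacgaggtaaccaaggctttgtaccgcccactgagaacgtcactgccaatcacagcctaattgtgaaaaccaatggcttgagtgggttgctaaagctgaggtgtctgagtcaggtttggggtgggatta
Ctss: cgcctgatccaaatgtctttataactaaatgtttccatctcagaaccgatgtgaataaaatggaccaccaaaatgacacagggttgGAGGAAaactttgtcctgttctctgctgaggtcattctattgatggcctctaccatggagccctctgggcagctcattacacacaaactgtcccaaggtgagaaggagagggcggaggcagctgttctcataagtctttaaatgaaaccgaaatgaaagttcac
On either strand, GAGGAA was found in the 250-base windows of 6 of these 6 members, and in 23.3% of all 32851 windows in the table. It began 30 bases before the start in C1qb, 225 in Cd68, 164 in Ctss, 193 in C1qc and 38 in Laptm5, and Mrc1 had it at 180, 167 and 35. These starts are RefSeq's. In GENCODE vM21 the genes of C1qc, Laptm5 and Mrc1 begin inside the window, and the match in Laptm5 lies within its annotated gene. The longer form GAGGAAGT, which contains GAGGAA, was found in C1qc alone of the 6, against 2.44% of all windows. The other letters searched, on both strands, were TGCTGA, read by MAF factors (3 members: C1qb, Ctss and Laptm5; 16.1% of all windows), TATAAA (2 members: Ctss and Laptm5; 12.4%), TGANTCA, read by AP-1 (1 member: Cd68; 6.75%), and the E-box CACGTG (0 members; 6.02%). These matches describe letters and not bound sites.

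Read as a set, the members were lowest at 2 weeks. Their summed normalized counts were 8549 at E18.5, 12177 and 13094 at P1 (male and female), 4301 and 4855 at 2 weeks, and 12122 and 10581 at 12 weeks. As a share of all reads in genes this ran from 0.023% in the 2-week male library to 0.0642% in the P1 female library. From P1 to 2 weeks, 7 of the 10 members fell, 0 rose and 3 did not pass the test (limma across all 16720 genes with a mean of at least 10, Benjamini-Hochberg adjusted p under 0.05). In that step 10.5% of all genes were called lower and 5.89% higher. From 2 to 12 weeks, 8 members rose and 1 fell, where 5.4% of all genes were called higher and 9.89% lower. Across the whole span from P1 to 12 weeks, 1 member rose and 3 fell, with 17.6% of all genes called higher and 23.5% lower. The members' median log2 change was -1.33, 1.28 and 0.10 in these 3 comparisons, beside 0.00, -0.03 and -0.03 for all genes. The comparisons share libraries and are not independent.

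**Figure D1:**
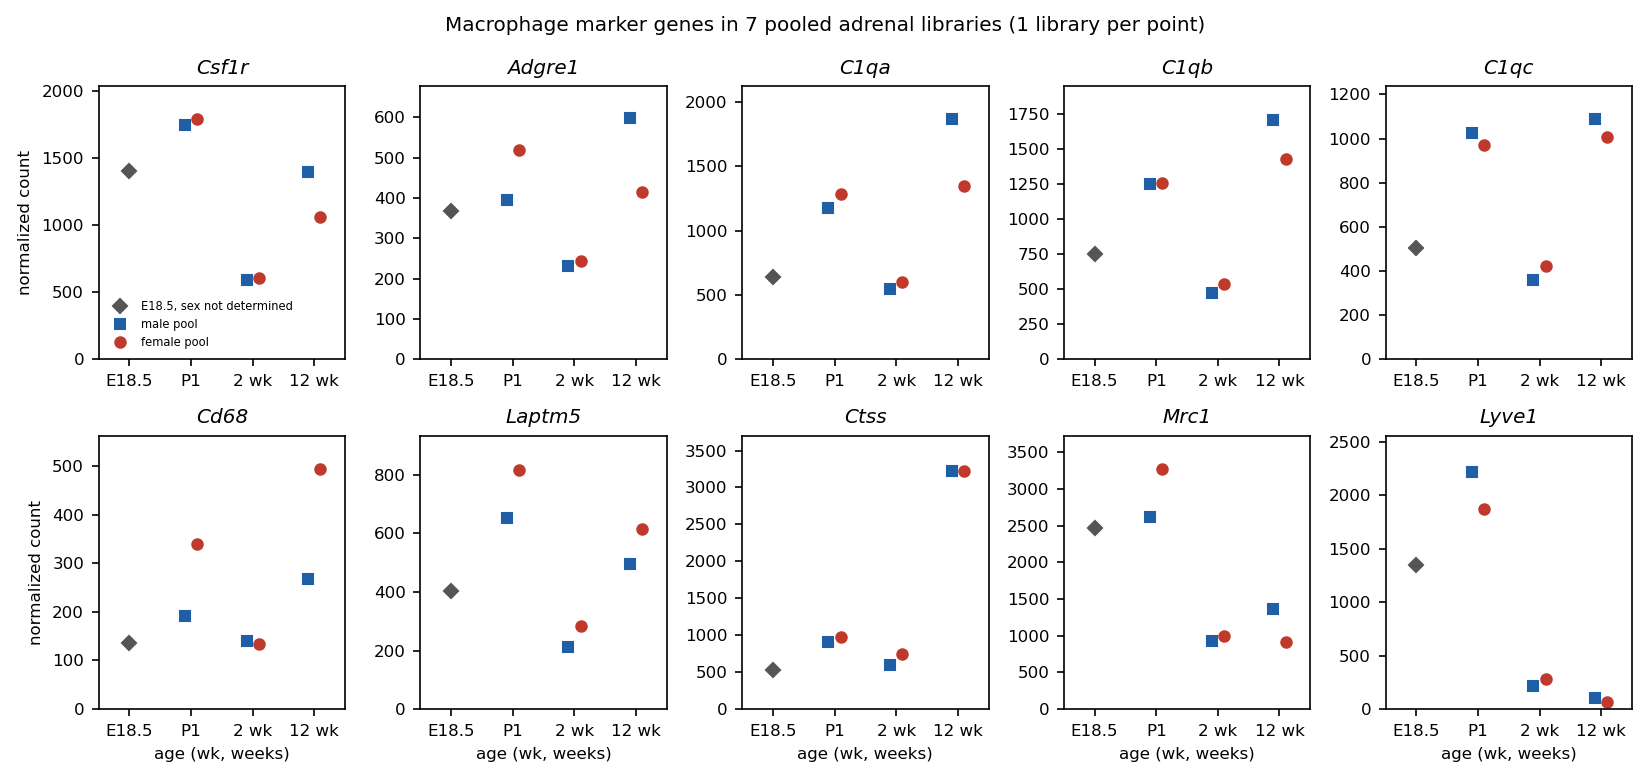
Normalized counts of each of the 10 members (vertical axes from 0) by age, 1 point per library, with squares for male, circles for female pools and a diamond for E18.5. Most members dip at 2 weeks, Ctss peaks near 3228 at 12 weeks, and Lyve1 drops from 2216 in the P1 male to 69 in the 12-week female library.

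The calls rest on few libraries. For P1 to 2 weeks, 0 of 10 members were called without the P1 male library and 0 without the P1 female library. In these fits 2 and 28 of all 16720 genes were called. At an unadjusted p under 0.05 limma gave 8 members in both, beside 3914 and 4027 of all genes. The count was 1 without the 2-week male, 5 without the 2-week female, and 10 without either 12-week library. For 2 to 12 weeks it was 5 without the P1 male, 5 without the P1 female, 4 without the 2-week male, 3 without the 2-week female, 8 without the 12-week male and 9 without the 12-week female. For P1 to 12 weeks it was 2 without the P1 female library. No called member changed direction in any of these fits. With a library left out, its partner is assumed to vary like the other ages. The number of all genes called moved in a like way. It was lowest without a P1 library for P1 to 2 weeks, and without a 2-week library for 2 to 12 weeks. In both it was highest without a 12-week library. The members' counts in these fits are thus no result about the members alone.

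The lineage receptors were lowest at 2 weeks. Csf1r fell and then rose, and Adgre1 passed the test for the rise alone. Csf1r encodes the growth factor receptor that keeps macrophages alive. It stood at 1408 normalized counts at E18.5, 1752 and 1795 at P1 (male and female), 590 and 606 at 2 weeks, and 1395 and 1063 at 12 weeks. Both 2-week pools were far below all others, and the ages did not overlap in any of the 3 steps. Csf1r fell by 1.57 ± 0.17 (SE) on the log2 scale from P1 to 2 weeks, or 2.96-fold (limma, adjusted p = 0.00377), and rose by 1.03 ± 0.17, or 2.04-fold, to 12 weeks (adjusted p = 0.0122). With the P1 female library left out, the first value was -1.46 (adjusted p = 0.0716) and the second 1.03 (adjusted p = 0.0526). Csf1r at 12 weeks remained 1.46-fold below P1 (-0.54 ± 0.17, limma, adjusted p = 0.0429), a call lost under upper-quartile scaling (-0.43, adjusted p = 0.0787) and without the P1 female library (-0.44, adjusted p = 0.217). Its exons overlap the antisense gene Hmgxb3 over 873 bases, 15.1% of its exon length, and the strand setting of the counting is not given in the sources used here. Hmgxb3 ranged from 885 to 1164 counts over the 7 libraries and was called in none of the 3 age comparisons.

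Adgre1 encodes F4/80, the surface adhesion receptor by which mouse macrophages are most often recognised. Its gene lies at chr17:57358691-57483527 (GENCODE vM21, GRCm38, plus strand). It read 369 normalized counts at E18.5, 394 and 519 at P1, 231 and 245 at 2 weeks, and 598 and 414 at 12 weeks. Both 2-week pools were again the lowest, and P1 and 12 weeks overlapped. The P1 to 2-week difference of -0.92 ± 0.25 missed the threshold (limma, adjusted p = 0.0516), while Adgre1 rose 2.09-fold from 2 to 12 weeks (1.06 ± 0.25, adjusted p = 0.0355). That rise was not called without the P1 female library (1.06, adjusted p = 0.073). From P1 to 12 weeks the difference was 0.14 ± 0.25 (adjusted p = 0.683).

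All 3 C1q chains fell from P1 to 2 weeks and rose to 12 weeks. C1q is the recognition molecule of the classical complement pathway, built from A, B and C chains in equal number, and macrophages are its main source. The 3 genes sit side by side on the minus strand of chromosome 4, within 18.7 kb (chr4:136880129-136898803, GENCODE vM21, GRCm38). C1qa read 641 normalized counts at E18.5, 1173 and 1286 at P1, 544 and 598 at 2 weeks, and 1865 and 1346 at 12 weeks. C1qb read 748, then 1251 and 1253, then 473 and 539, then 1709 and 1431 at the same ages. C1qc read 505, then 1023 and 970, then 358 and 421, then 1089 and 1007. For each chain both 2-week pools were the lowest of the 7 libraries, and the P1 and 12-week pools stood apart for C1qa and C1qb and overlapped for C1qc.

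From P1 to 2 weeks C1qa fell 2.15-fold (-1.11 ± 0.20, limma, adjusted p = 0.0146), C1qb 2.48-fold (-1.31 ± 0.17, adjusted p = 0.00573) and C1qc 2.56-fold (-1.36 ± 0.16, adjusted p = 0.0051). From 2 to 12 weeks they rose 2.78-fold, 3.09-fold and 2.69-fold (1.47 ± 0.20, 1.63 ± 0.17 and 1.43 ± 0.16, limma, adjusted p = 0.00611, 0.00257 and 0.00391). The rise was called for all 3 chains without the P1 female library (adjusted p = 0.0432, 0.0341 and 0.036), whereas the earlier fall was called for none of them (adjusted p = 0.147, 0.0833 and 0.07). From P1 to 12 weeks none of the 3 passed the test, with differences of 0.37 ± 0.20, 0.32 ± 0.17 and 0.07 ± 0.16 (limma, adjusted p = 0.175, 0.164 and 0.749).

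Levels between chains were compared per kilobase of exon. The length used was that of all annotated exons of a gene merged, 1.04 kb for C1qa, 1.09 for C1qb and 1.93 for C1qc. The size of each ratio depends on these lengths, and its change between libraries does not. The ratio of C1qa to C1qb ran from 0.897 at E18.5 to 1.2 in the 2-week male library, and in the P1 male, P1 female and 12-week female libraries it did not differ from equality beyond counting error. The ratio of C1qc to C1qb was lower and stayed between 0.359 (12-week male) and 0.461 (P1 male). These ratios thus varied 1.34-fold and 1.28-fold over the 7 libraries, while C1qb itself varied 3.61-fold.

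The lysosomal members were all lower at 2 weeks than at P1 and rose to 12 weeks. They ended at different levels against P1, and the difference between these genes was not tested. Cd68, a heavily glycosylated lysosomal membrane protein, lies at chr11:69664213-69666153. It read 136 normalized counts at E18.5, 191 and 339 at P1, 140 and 133 at 2 weeks, and 267 and 493 at 12 weeks. The female pool was well above the male pool at P1 and at 12 weeks, and P1 and 12 weeks overlapped. Cd68 missed the threshold from P1 to 2 weeks (-0.90 ± 0.28, limma, adjusted p = 0.0791) and rose 2.65-fold to 12 weeks (1.41 ± 0.28, adjusted p = 0.0223), a call lost without the P1 female library (1.41, adjusted p = 0.0774). From P1 to 12 weeks it differed by 0.51 ± 0.28 (adjusted p = 0.189).

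Laptm5 encodes a lysosomal membrane protein found throughout blood-derived cells, at chr4:130913125-130936141. Its normalized counts were 404 at E18.5, 651 and 818 at P1, 213 and 285 at 2 weeks, and 496 and 614 at 12 weeks. Both 12-week pools lay between those of P1 and 2 weeks, with no overlap between any of these ages. Laptm5 fell 2.95-fold from P1 to 2 weeks (-1.56 ± 0.16, limma, adjusted p = 0.00349) and rose 2.23-fold from 2 to 12 weeks (1.16 ± 0.16, adjusted p = 0.007). Leaving out the P1 female library gave -1.58 (adjusted p = 0.0639) and 1.16 (adjusted p = 0.0424). From P1 to 12 weeks the difference was -0.40 ± 0.16 (adjusted p = 0.09).

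Ctss encodes cathepsin S, a lysosomal protease that cuts the invariant chain from MHC class II, and lies at chr3:95526786-95556403. It read 525 normalized counts at E18.5, 912 and 981 at P1, 600 and 746 at 2 weeks, and 3228 and 3227 at 12 weeks. The 12-week pools were equal to each other and more than 3-fold above every earlier library. The P1 to 2-week difference of -0.50 ± 0.15 missed the threshold (limma, adjusted p = 0.0721). Ctss then rose 4.82-fold to 12 weeks (2.27 ± 0.15, adjusted p = 0.000888), the steepest rise among the members, and ended 3.41-fold above P1 (1.77 ± 0.15, adjusted p = 0.000414). It was the single member that rose over the whole span. Both calls held without the P1 female library (2.27, adjusted p = 0.0287, and 1.74, adjusted p = 0.0197).

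The 2 scavenging receptors, Mrc1 and Lyve1, fell after P1 and were still below it at 12 weeks. Mrc1 encodes the macrophage mannose receptor CD206, which takes up glycoproteins, and lies at chr2:14229392-14332057. Its normalized counts were 2469 at E18.5, 2613 and 3267 at P1, 933 and 999 at 2 weeks, and 1366 and 915 at 12 weeks. All 4 later pools were below all 3 earlier ones, and the 2-week and 12-week pools overlapped. Mrc1 fell 3.02-fold from P1 to 2 weeks (-1.60 ± 0.23, limma, adjusted p = 0.00799) and was 2.61-fold below P1 at 12 weeks (-1.38 ± 0.23, adjusted p = 0.00432). Between 2 and 12 weeks it differed by 0.21 ± 0.23 (adjusted p = 0.569), with 0.55 in males and -0.13 in females. Without the P1 female library neither fall was called (-1.32, adjusted p = 0.106, and -1.10, adjusted p = 0.0672).

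Lyve1 encodes a hyaluronan receptor carried by resident macrophages near vessels and by lymphatic and liver sinusoidal endothelium, and lies at chr7:110850607-110863239. It read 1344 normalized counts at E18.5, 2216 and 1867 at P1, 218 and 282 at 2 weeks, and 108 and 69 at 12 weeks. Each postnatal age was clear of the next, and the highest and lowest libraries were 32.1-fold apart, the widest range among the members. Lyve1 fell 8.17-fold from P1 to 2 weeks (-3.03 ± 0.26, limma, adjusted p = 0.00234) and a further 2.86-fold to 12 weeks (-1.51 ± 0.26, adjusted p = 0.0138). Over the whole span it fell 23.3-fold (-4.54 ± 0.26, adjusted p = 0.00015). Without the P1 female library the whole-span call held (-4.60, adjusted p = 0.0176), and the 2 steps were -3.09 (adjusted p = 0.0658) and -1.51 (adjusted p = 0.072).

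**Figure D2:**
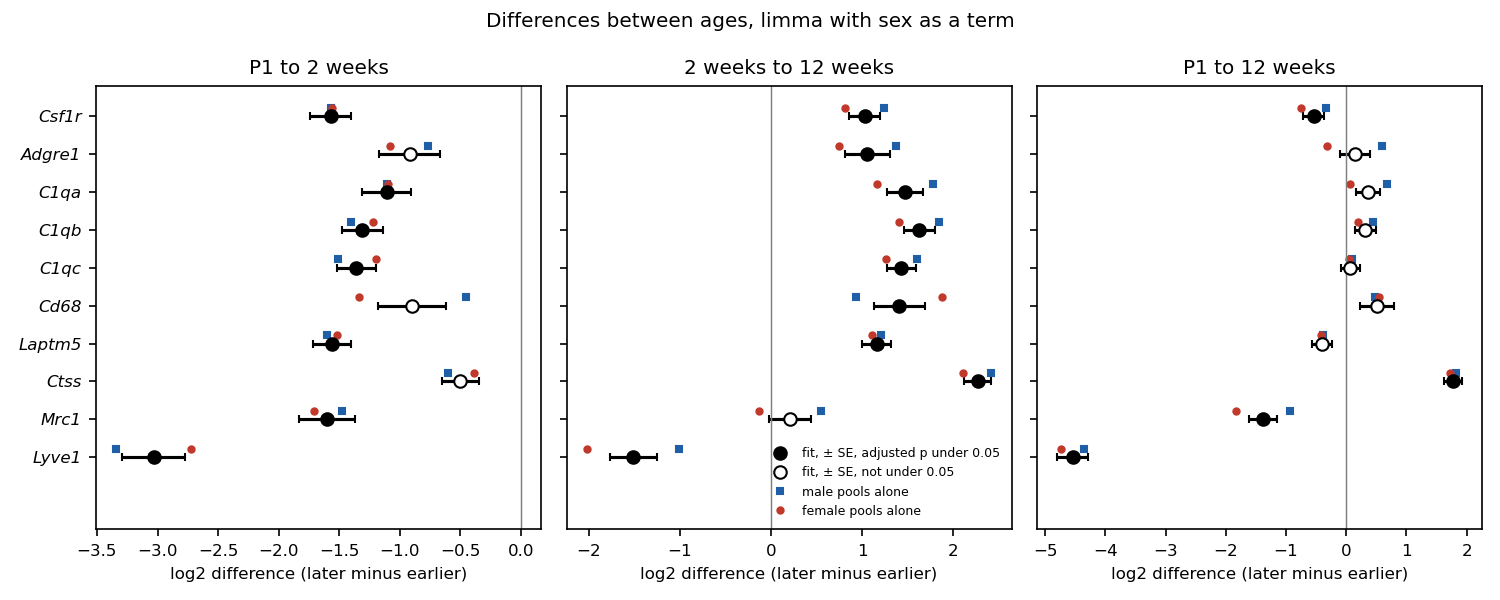
Log2 difference of each member between ages (limma, 6 postnatal libraries), as circles with bars of 1 standard error, filled where the adjusted p is under 0.05, beside the difference in male pools alone (squares) and female pools alone (small circles). From P1 to 2 weeks all 10 values are below 0, from 2 to 12 weeks 9 are above 0 and Lyve1 is at -1.51, and over the whole span Ctss (1.77) and Lyve1 (-4.54) lie at opposite ends.

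Between E18.5 and P1 the single libraries were set side by side with no test, and the members were higher in both P1 libraries. All 10 were above E18.5 in the P1 male library, 9 of them beyond counting error (95% exact interval), and all 10 were so in the P1 female library. Of all tested genes, 31.5% and 35.4% were higher beyond counting error in these comparisons. At least 2-fold, however, were 1 member in the male and 3 in the female comparison, where 4.9% and 7.04% of all tested genes were at least 2-fold higher. The median log2 difference was 0.70 and 0.82, beside 0.03 and 0.04 for all genes, and both comparisons use the same E18.5 library. C1qc had the highest value in the male comparison at 1.02 (95% interval 0.88 to 1.16), and Cd68 in the female comparison at 1.32 (1.04 to 1.60), against 0.49 (0.20 to 0.79) in the male. Laptm5 differed by 0.69 in the male and 1.02 in the female comparison, and C1qa by at least 0.87 in both. Mrc1 and Adgre1 differed least from E18.5 in the P1 male library, at 0.08 (0.01 to 0.15) and 0.10 (-0.09 to 0.29). These intervals cover counting error only.

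No member passed the test between the sexes. With age in the fit, 0 of 10 members were called between male and female pools (limma, adjusted p = 0.999 for each), and 0.00598% of all genes, that is 1 gene, was called. At an unadjusted p under 0.05 limma listed 1 member, Laptm5, at -0.35 ± 0.13 (male minus female), lower in males at 3 of 3 ages. On read counts edgeR called 0 members and listed 2 at an unadjusted p under 0.05, and DESeq2 called 0 and listed 0. The lowest value was that of Cd68 (-0.55 ± 0.23) and the highest that of Lyve1 (0.17 ± 0.21). Leaving out the P1 female library gave -0.41 and 0.13, and 0 members were called.

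Within an age, 0 members were 2-fold apart between the sexes, where 6.78% of all tested genes were so at P1, 4.24% at 2 weeks and 8.83% at 12 weeks. Cd68 came nearest, with male minus female values of -0.82 (95% interval -1.08 to -0.57) at P1 and -0.89 (-1.14 to -0.64) at 12 weeks, and 0.07 at 2 weeks. Beyond counting error, 6 members differed at P1, 5 at 2 weeks and 8 at 12 weeks, where 53.7%, 32.7% and 46.5% of all tested genes did. At 12 weeks 6 of the 8 were higher in the male pool: Adgre1 0.53, Csf1r 0.39, C1qa 0.47, C1qb 0.26, Mrc1 0.58 and Lyve1 0.64. Cd68 and Laptm5 (-0.31) were lower in the male pool at that age, and Ctss was level at 0.00. The median over the members was -0.12 in the P1 pair of pools, -0.16 in the 2-week pair and 0.32 in the 12-week pair. For 5 of the 10 members the sign at 1 age was opposite to that at another, both beyond counting error, as it was for 27% of all tested genes. With 1 pool per sex and age these differences have no replicate check.

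Against Csf1r, some of the members changed their proportions with age. Per kilobase of exon, Ctss stood to Csf1r as 1.59 at E18.5, 2.21 and 2.32 at P1, 4.33 and 5.24 at 2 weeks, and 9.84 and 12.9 at 12 weeks. Lyve1 to Csf1r ran the other way, at 1.89, then 2.5 and 2.06, then 0.731 and 0.921, then 0.153 and 0.128. Ctss thus climbed at every age relative to the lineage receptor, and Lyve1 dropped at every age after P1. The ratio of C1qb to Csf1r was 2.82 at E18.5, 3.79 and 3.7 at P1, 4.26 and 4.72 at 2 weeks, and 6.5 and 7.14 at 12 weeks. Mrc1 to Csf1r lay between 1.35 and 1.65 in the 5 libraries up to 2 weeks and at 0.887 and 0.78 at 12 weeks. Laptm5 to Csf1r had no steady course. It was 0.566 and 0.695 at P1, 0.552 and 0.717 at 2 weeks, and 0.542 and 0.881 at 12 weeks. Adgre1 to Csf1r was 0.401 and 0.515 at P1, 0.699 and 0.722 at 2 weeks, and 0.765 and 0.694 at 12 weeks. Cd68 to Csf1r was 0.879 in the 12-week male and 2.13 in the 12-week female library. Lyve1 to Mrc1 was 1.19 at E18.5, 1.85 and 1.25 at P1, 0.51 and 0.617 at 2 weeks, and 0.172 and 0.165 at 12 weeks. The ratio was thus lower at each age after P1 than at the one before, and the difference between the 2 courses was not tested.

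**Figure D3:**
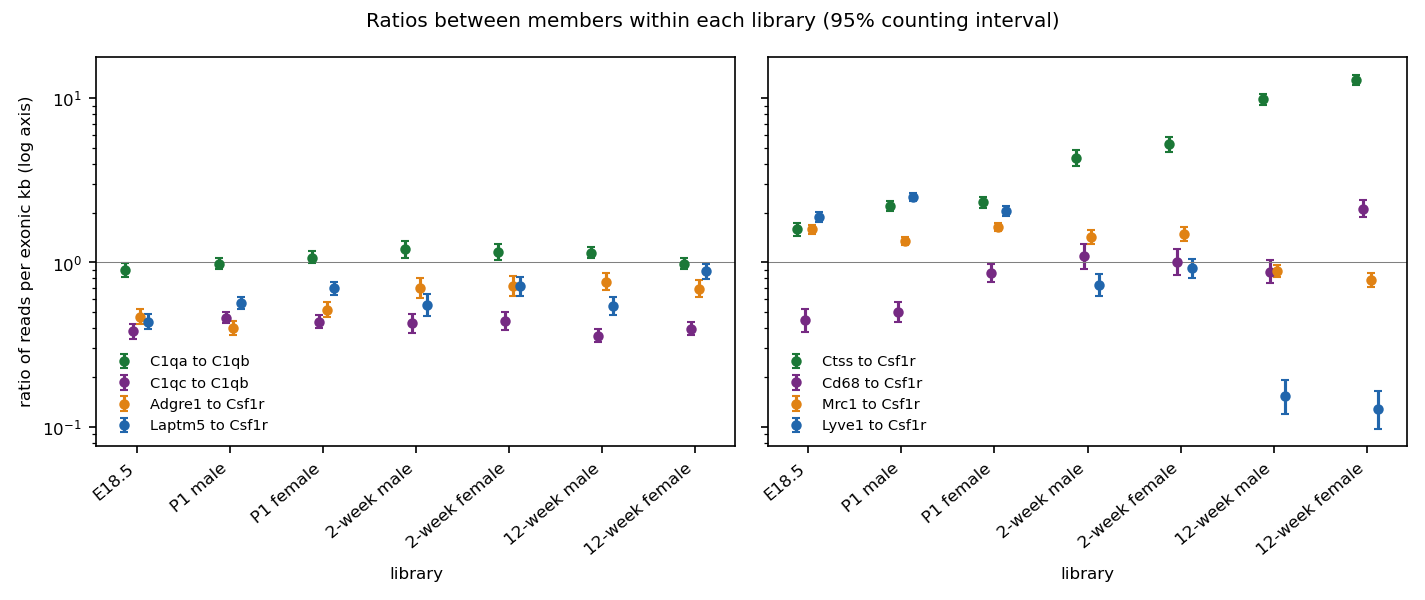
Ratios between members per kilobase of exon (log axis) in the 7 libraries, within C1q and for Adgre1 and Laptm5 to Csf1r on the left, and for Ctss, Cd68, Mrc1 and Lyve1 to Csf1r on the right, with bars for the 95% interval from counting error. Ctss to Csf1r climbs from 1.59 at E18.5 to 12.9 in the 12-week female library, Lyve1 to Csf1r ends at 0.128, and the ratios within C1q stay nearly flat.

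Per kilobase, the order of the members changed as well. Over the 7 libraries the mean level was 1075 normalized counts per kilobase for Ctss, 1024 for C1qa and 972 for C1qb, then 398 for C1qc, 299 for Lyve1, 282 for Mrc1, 213 for Csf1r, 193 for Cd68, 131 for Laptm5 and 122 for Adgre1. The range over the 7 libraries of each overlaps that of its neighbour in this order, narrowly for C1qb (435 to 1570) and C1qc (186 to 564), where C1qc was the lower in every library. At E18.5 the order was led by C1qb (687), C1qa (616) and Lyve1 (461). In both 12-week libraries Ctss was first (2377 and 2376) and Lyve1 last (36.9 and 23.6).

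Distances between patterns put these courses in order. Each gene's log2(normalized count + 1) values were centred on their mean over the 7 libraries, and the root mean square difference between genes was taken. Against the mean of the members, Laptm5 (0.17), Csf1r (0.19), Adgre1 (0.24) and C1qc (0.26) lay closest, and Lyve1 (1.75) and Ctss (0.91) farthest. Of the 45 pairs of members the closest were C1qb and C1qc (0.12), C1qa and C1qb (0.14) and C1qa and C1qc (0.17). Among 12245 other genes with a mean of at least 100, the 10 nearest to the members' mean were Fcgr3 (0.10), Pik3cg (0.12), Lcp2 (0.13), C3ar1 (0.14), Plek (0.14), Rab7b (0.15), Arhgap30 (0.16), Serping1 (0.16), Chrdl1 (0.16) and Slc9a9 (0.16). Fcgr3 encodes a receptor for the constant part of IgG, and C3ar1 the receptor for the complement fragment C3a.

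Single members had other neighbours. Nearest to Lyve1 were Lox (0.24), Slc6a13 (0.28), Fn1 (0.29), Col6a6 (0.29) and Pdlim3 (0.30), of which Lox and Fn1 encode a collagen cross-linking enzyme and fibronectin. Nearest to Ctss were Gm38863 (0.21), Slfn8 (0.26), Ifit3 (0.31), Ifit1 (0.31) and Nr1d1 (0.33), where Ifit1 and Ifit3 are interferon-induced genes. Mrc1 had Maf (0.13), Slc40a1 (0.15), Tnxb (0.15), Snai2 (0.16) and Hdac9 (0.16) nearest, with Slc40a1 encoding the iron exporter ferroportin. March1, a ubiquitin ligase, was the nearest to C1qa (0.09) and C1qb (0.10), and Hspb1, a small heat shock protein, to C1qc (0.10), with March1 next (0.11). These distances describe 7 libraries and carry no test.

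Other macrophage genes gave counts of the same kind. Of 25 genes in that list, 13 fell and 0 rose from P1 to 2 weeks (median log2 -1.12), 12 rose and 2 fell from 2 to 12 weeks (median 1.05), and 3 rose and 7 fell from P1 to 12 weeks (median 0.17). Among the 4 highest, Axl, a receptor for dying cells, fell 2.69-fold from P1 to 2 weeks (limma, adjusted p = 0.00295) and was 2.09-fold below P1 at 12 weeks (adjusted p = 0.0017). F13a1, the A chain of coagulation factor XIII, fell 6.2-fold in the first step (adjusted p = 0.00506) and read 312 and 176 counts at 12 weeks against 2526 and 1625 at P1. Lgmn, a lysosomal protease, and Mertk, another receptor for dying cells, passed in none of the 3 comparisons. The 2 that fell from 2 to 12 weeks, Cd163 and Timd4, were named after their values were seen. Cd163 went from 267 and 263 counts to 122 and 87.1, and Timd4 from 18.7 and 35.3 to 2.8 and 4.53. Cd163 and Timd4 both encode scavenging receptors of resident macrophages. At 12 weeks Timd4 rested on very few reads, as 3 reads are 4.19 counts in the male and 3.39 in the female library. In the fit without the P1 female library, Axl (-1.41, limma, adjusted p = 0.0569) and F13a1 (-2.87, adjusted p = 0.0829) were not called in the first step, and both still fell over the whole span (adjusted p = 0.0276 and 0.0282). For the step from 2 to 12 weeks that fit gave an adjusted p of 0.0543 for Cd163 and 0.0477 for Timd4. The first count was 0 without either P1 library, 2 without the 2-week male and 8 without the 2-week female library, and the second 5 without either P1 or the 2-week female library and 2 without the 2-week male library.

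Among ligands of CSF1R and macrophage transcription factors, 5 of 11 fell and 2 rose from P1 to 2 weeks, 2 rose and 0 fell from 2 to 12 weeks, and 2 rose and 3 fell over the whole span (medians 0.03, 0.09 and -0.41). Csf1 ran beside its receptor, with 938 and 953 counts at P1, 375 and 377 at 2 weeks, and 537 and 638 at 12 weeks. It fell by 1.33 ± 0.16 (limma, adjusted p = 0.00512) and then rose by 0.64 ± 0.16 (adjusted p = 0.0447). Il34, the other ligand and not among the 4 highest of the list, read 22.7 counts at E18.5, 46.6 and 50.8 at P1, 77.4 and 82 at 2 weeks, and 257 and 448 at 12 weeks. It rose 4.22-fold from 2 to 12 weeks (limma, adjusted p = 0.00657). The 2 ligands of the same receptor thus had opposite net courses, as Csf1 was 1.61-fold below P1 at 12 weeks (adjusted p = 0.0159) and Il34 was 6.86-fold above it (adjusted p = 0.000758). Maf, a transcription factor of resident macrophages, fell 2.92-fold from P1 to 2 weeks (adjusted p = 0.008) and stayed 2.75-fold below P1 (adjusted p = 0.00315). Spi1, the gene of PU.1 named for the promoters above, fell 2.44-fold in the first step (adjusted p = 0.0305) and did not pass in the other 2. Irf8 passed in none of the 3, and Cebpa, a factor that adipocytes also use, rose 3.46-fold from P1 to 2 weeks (adjusted p = 0.00347). In the fit without the P1 female library, none of Csf1, Maf, Spi1 and Cebpa was called from P1 to 2 weeks (limma, adjusted p = 0.0699, 0.105, 0.148 and 0.061). The calls of Csf1 were lost in the other comparisons too (adjusted p = 0.0854 and 0.0761), that of Maf over the whole span as well (adjusted p = 0.055), and those of Il34 held (adjusted p = 0.0462 and 0.0296). For P1 to 2 weeks the count of this list was 0 without either P1 library or the 2-week male and 1 without the 2-week female, and for 2 to 12 weeks it was 1 without either P1 library and 0 without either 2-week library.

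Of 12 genes of the classical complement pathway beyond C1q, 5 fell from P1 to 2 weeks, 4 rose from 2 to 12 weeks, and 3 rose and 1 fell over the whole span (medians -0.32, 0.77 and -0.01). C3, the central component, fell 6.2-fold in the first step (limma, adjusted p = 0.0366) and read 5437 counts in the 12-week male and 49200 in the 12-week female library. Serping1, the inhibitor of the C1 proteases, fell 2.07-fold and then rose 1.63-fold (limma, adjusted p = 0.00669 and 0.0215), and C1s1, a protease that C1q carries, passed in none of the 3 comparisons. When the P1 female library was left out, C3 and Serping1 were not called (limma, adjusted p = 0.169 for C3, and 0.0789 and 0.0586 for Serping1). The first count was 0 without either P1 library or the 2-week male and 2 without the 2-week female, the second was 1 without the P1 male or either 2-week library, 2 without the P1 female and 7 without the 12-week female, and the third was 2 without the P1 female.

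Of 15 general lysosome genes, 1 fell from P1 to 2 weeks, 5 rose from 2 to 12 weeks, and 7 rose and 2 fell over the whole span (medians -0.18, 0.52 and 0.46). The proteases Ctsb and Ctsd rose 2.23-fold and 1.89-fold from 2 to 12 weeks (limma, adjusted p = 0.0272 and 0.0226), against 4.82-fold for Ctss. Psap and Lamp1, an activator protein and a membrane protein of the lysosome, did not pass in that step and rose 1.63-fold and 1.48-fold from P1 to 12 weeks (adjusted p = 0.0176 and 0.03). None of these 4 calls held without the P1 female library (limma, adjusted p = 0.0859, 0.0693, 0.138 and 0.155). The count of 5 from 2 to 12 weeks was 1 without either P1, the 2-week female or the 12-week female library, and 0 without the 2-week male. The whole-span count of 9 was 3 without either P1 library, 4 without the 2-week male, 5 without the 2-week female and 4 without the 12-week female, and the single fall was 0 without any P1 or 2-week library and 3 without either 12-week library.

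Markers of other cells, only some of which carry members, also changed with age. All 5 genes listed for Kupffer cells, the macrophages of the liver, were lower at 2 weeks than at P1, 4 of them called. All 5 fell from P1 to 12 weeks. Timd4 is in this list and in that of other macrophage genes, so these 5 genes do not mark the liver alone. Their summed counts were 341 at E18.5, 447 and 777 at P1, 71.2 and 132 at 2 weeks, and 26.6 and 60 at 12 weeks. The defining gene Clec4f went from 159 and 126 counts at P1 to 4.45 and 9.7 at 2 weeks, and was at or under 3 reads in both 12-week libraries. For liver sinusoidal endothelium, 4 genes of a list of 5 were tested, and 4 fell from P1 to 2 weeks, 1 from 2 to 12 weeks and 3 over the whole span. Their sums were 1692 at E18.5, 1554 and 1605 at P1, 352 and 518 at 2 weeks, and 190 and 196 at 12 weeks, with Clec4g at 0 in both 12-week libraries. Stab2, the highest of these, read 1169 counts at E18.5 and 1079 and 1085 at P1. It then read 151 and 241 at 2 weeks, and 22.4 and 13.6 at 12 weeks. After P1 it was thus lower at each age than at the one before, as Lyve1 was. From E18.5 to P1 these genes differed, as Lyve1 was higher at P1 (1344 counts, then 2216 and 1867). All 8 hepatocyte genes fell from P1 to 2 weeks and over the whole span, and 7 fell from 2 to 12 weeks. Their sums were 262723 to 380260 before 2 weeks, 13123 and 34280 at 2 weeks, and 454 and 432 at 12 weeks. Of 5 tested lymphatic endothelial genes, 3 fell from P1 to 2 weeks, 2 from 2 to 12 weeks and 3 over the whole span. The sums of this list were 6746 to 7442 before 2 weeks and 3231 to 4018 from 2 weeks on. Over the whole span Reln fell 37.4-fold, Mmrn1 10.8-fold and Pdpn 4.09-fold. Prox1 and Flt4 were not called in any of the 3 comparisons, at 1485 to 2816 and 880 to 1190 counts, and Ccl21a was at 0 in all 7 libraries. Without the P1 female library limma called 0 of the Kupffer, liver sinusoidal and lymphatic genes from P1 to 2 weeks (4, 4 and 3 at an unadjusted p under 0.05) and 2 of the hepatocyte genes. From P1 to 12 weeks it then called 3, 3, 3 and 8, all lower. The part of these cells in the values of Lyve1, Mrc1 and the other members was not tested.

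Lists of blood-borne cells and of blood endothelium gave other values. Of 7 monocyte genes, 3 fell from P1 to 2 weeks, 2 from 2 to 12 weeks, and 1 rose and 3 fell over the whole span. Their sum ran from 38021 to 53835 before 2 weeks and from 1978 to 9038 from 2 weeks on. Most of it came from Fn1, which many other cells express. Fn1 and Vcan were the 2 genes that fell from 2 to 12 weeks. With Plac8 they were the 3 that fell in each of the other comparisons. Ccr2 was the 1 that rose over the whole span (1.07 ± 0.31, limma, adjusted p = 0.0317). Its difference was 0.81 without the P1 female library. Of 9 neutrophil genes, 2 fell in the first step, 0 were called in the second (limma) and 7 fell over the whole span. Their sum was 2792 to 4676 before 2 weeks, 32 in the 2-week male, 2103 in the 2-week female, and 62.9 and 53.2 at 12 weeks, with the 2-week pools far apart. Among T and B cell genes, 5 of 9 were tested, of which 1 fell in the first step, 0 were called in the second and 3 fell over the whole span, with sums between 95 and 276. Of 8 erythroid genes, 3 fell in the first step, 2 in the second and 8 over the whole span. Their sums were 62430 to 116692 before 2 weeks and 5478 to 26445 from 2 weeks on. Blood endothelial genes had sums of 16997 to 22268 in all 7 libraries, with 0 of 6 called in the first step, and 2 higher and 1 lower both in the second and over the whole span. When the P1 female library was left out, limma called 1 monocyte gene and 0 genes of the other 4 lists from P1 to 2 weeks (4 neutrophil, 2 T and B cell, 2 erythroid and 0 blood endothelial genes at an unadjusted p under 0.05). Over the whole span it then called 4 monocyte, 3 neutrophil, 1 T and B cell and 1 blood endothelial gene, all lower, and 0 erythroid genes (8 at an unadjusted p under 0.05). In these lists too, the part of such cells in the members' values was not tested.

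**Figure D4:**
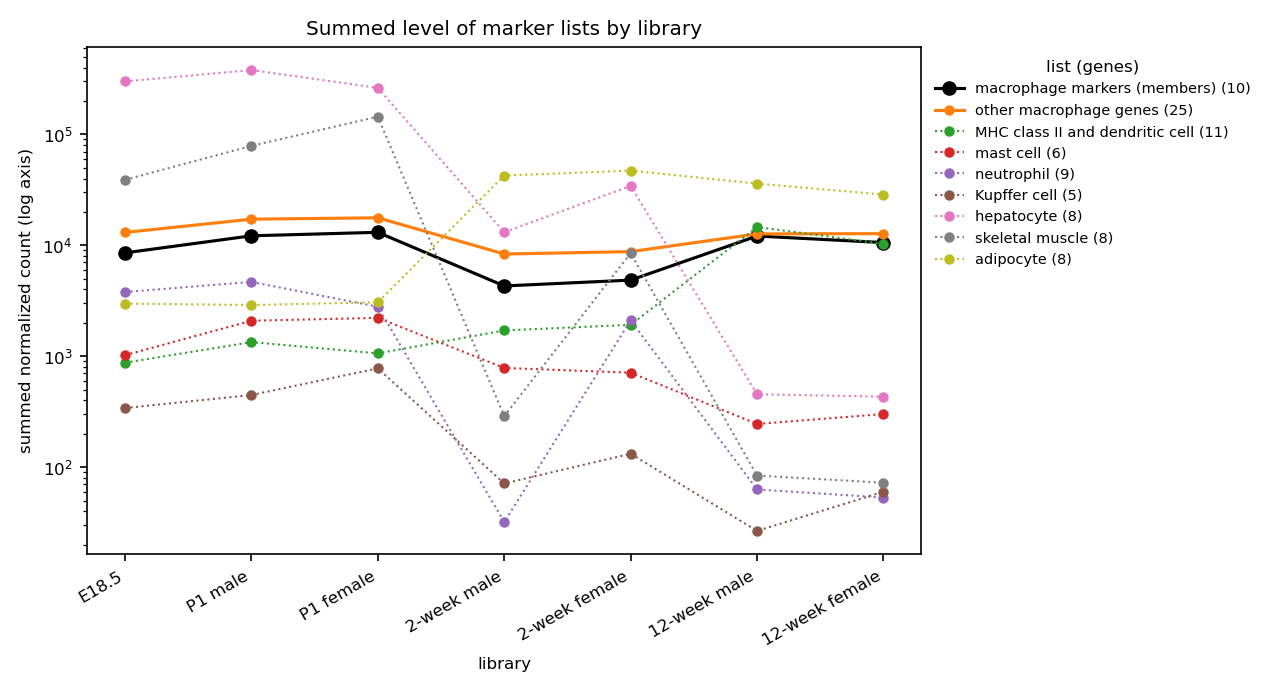
Summed normalized counts (log axis) of the 10 members, 25 other macrophage genes and 7 lists of other cells in the 7 libraries, 1 point per library, with lines joining the points of a list. The members (black) lie lowest at 2 weeks and return to 12122 and 10581 at 12 weeks, while the Kupffer sum ends at 26.6 and 60 and the hepatocyte sum at 454 and 432.

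Marker genes of neighbouring and other tissues changed with age as well. All 8 kidney genes fell from P1 to 2 weeks and over the whole span, with 0 called from 2 to 12 weeks (limma), and their sum was 3197 in the P1 male and 630 in the P1 female library against at most 14.1 from 2 weeks on. Of 8 skeletal muscle genes, 7 fell in the first step, 5 in the second and 8 over the whole span, with sums of 78712 and 144495 at P1, 288 in the 2-week male and 8517 in the 2-week female library, and 83.9 and 72.4 at 12 weeks. Of 6 tested exocrine pancreas genes, 3 fell in the first step, 0 were called in the second and 3 fell over the whole span, and their sum was 5485 in the P1 male library and at most 64 elsewhere. Of 8 adipocyte genes, 7 rose in the first step, 1 rose and 2 fell in the second and 8 rose over the whole span, with sums of 2983 at E18.5, 2893 and 3065 at P1, and 28659 to 47127 from 2 weeks on. The 10 adrenal cortex genes gave 1 rise in the first step, 0 calls in the second and 4 rises over the whole span, with sums from 262958 in the P1 female to 1149615 in the 12-week female library. Of 8 chromaffin cell genes, 1 rose in the first step, 2 fell in the second, and 2 rose and 1 fell over the whole span, with sums of 42040 to 125652. When the P1 female library was left out, 4 adipocyte genes rose from P1 to 2 weeks and 2 pancreas genes fell, and limma called 0 of the kidney, muscle, cortex and chromaffin lists (8, 7, 1 and 5 at an unadjusted p under 0.05). Over the whole span 7 adipocyte genes and 1 chromaffin gene then rose, and 8 kidney, 7 muscle, 6 pancreas genes and 1 cortex gene fell. The members' counts are relative to all of this RNA, and the part of these shifts in them was not tested.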

How the data were processed

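RNA-seq was done on 7 pools of C57BL/6J adrenal glands, 1 library per group of age and sex. The deposited signal values are read counts per gene that the authors divided by 1 size factor per library. CASAVA 1.8.2, HISAT2 2.1.0, HTSeq 0.9.1, DESeq2 2.11.40.6 and the build mm10 are named, per the submitters' processing notes. The annotation, the strand setting and the handling of reads with several matches are not given in the sources used here. Such values are relative within the table, so a large change in other RNA shifts every gene. Multiplying by 1 size factor per library gave whole reads (within 0.01) for 100% of the values, with a largest deviation of 0.000114.

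Values were taken as log2(normalized count + 1), so fold changes of low genes are understated. The 16720 of 35976 genes with a mean of at least 10 were tested in limma 3.58.1 (R 4.3.3) with age and sex as terms over the 6 postnatal libraries, with a variance trend and Benjamini-Hochberg adjustment. A gene was called at an adjusted p under 0.05, and 8722 genes had no read. edgeR 4.0.16 and DESeq2 1.42.0 on the recovered reads were alternatives, added to other scalings, filters and pseudocounts and to leaving out each library. On these reads edgeR called 2854, 2441, 6781 and 1 genes for P1 to 2 weeks, 2 to 12 weeks, P1 to 12 weeks and sex. E18.5 had 1 library and was compared by 95% exact binomial intervals, which cover counting error only. Exon lengths (all annotated exons of a gene merged) and gene coordinates came from GENCODE vM21.

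The members and all gene lists were chosen with earlier results of these data known, and support nothing by their choice. All members are named. Of each list of related genes, the 4 with the highest mean are named (1 of the complement list is not reported here), with any other said to be chosen later, and marker lists of other cells are given by counts and sums. The 10 genes nearest to the members' mean and up to 5 nearest to a member were named by root mean square distance. 0 value columns lacked a sample.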

Additional observations from a re-analysis of the deposited data

Results flagged for a closer look

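For 5 of the 10 members the difference between the male and the female pool pointed in opposite directions at different ages, each time beyond the counting error of the 2 libraries compared. Of all 16720 tested genes, 27% did so by the same rule. Each age has 1 pool per sex, and the difference between ages was not tested. Male minus female, on the log2 scale, Adgre1 was -0.40 at P1 and 0.53 at 12 weeks. Mrc1 was -0.32 at P1 and 0.58 at 12 weeks, and C1qa -0.13 and 0.47, where the P1 value of C1qa was -0.05 when libraries were scaled to equal totals. C1qb was -0.19 at 2 weeks and 0.26 at 12 weeks. Lyve1 had 0.25 in the P1 pools, -0.37 in the 2-week pools and 0.64 in the 12-week pools. The P1 values of Adgre1, Mrc1, C1qa and Lyve1 rest on the library labelled P1 female, which held Y-linked reads.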

How the results depend on the processing

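No paired analysis was possible because the labels carry no replicate numbers and each group is 1 pool. With no filter on low genes, limma called 0 members from P1 to 2 weeks (9 at an unadjusted p under 0.05) and 0 from 2 to 12 weeks (also 9), and 2 from P1 to 12 weeks, against 7, 9 and 4 with the filter. edgeR called 7 and 9 and DESeq2 8 and 9 in the first 2 comparisons. Without a variance trend 5 were called from 2 to 12 weeks. Leaving out each library in turn gave 0 to 10, 3 to 9 and 2 to 4 members. Members at least 2-fold above E18.5 were 0 in the P1 male library under TMM or upper-quartile scaling, and 1 in the P1 female library under either of these or equal totals. Over all genes, 2737, 2557 and 6881 were called, against 0, 0 and 4691 with no filter, 1672, 1661 and 5723 without a trend, and 2 to 4461, 421 to 3035 and 3207 to 6271 with 1 library left out. DESeq2 called 9 genes for sex, limma 1. Of 400 member values refitted with other settings, 371 kept direction and call, 25 lost the call, 2 gained it, and 2 that were never called changed sign (C1qc under equal totals, -0.05 from P1 to 12 weeks and 0.05 for male minus female). Of 240 with a library left out, 167 kept both, 48 lost the call, 7 gained it and 18, none of them called, changed sign. Their ranges with a library left out were -0.18 to 0.61 for Mrc1 from 2 to 12 weeks, and -0.25 to 0.52 for Adgre1 and -0.02 to 0.17 for C1qc from P1 to 12 weeks. For male minus female they were -0.24 to 0.22 (Adgre1), -0.04 to 0.18 (Csf1r), -0.13 to 0.17 (C1qa), -0.09 to 0.13 (C1qb), -0.08 to 0.09 (C1qc), -0.21 to 0.24 (Mrc1) and -0.06 to 0.44 (Lyve1). Of 300 between single libraries, 298 moved within their counting interval and 2 beyond it. No called value changed sign. With 2 pools per age, a missed call is no sign that a member was level.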

Other observations

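Antigen presentation genes rose late. Of 10 tested genes of MHC class II and dendritic cells, 3 rose from P1 to 2 weeks, 6 from 2 to 12 weeks and 8 from P1 to 12 weeks, with 0 lower in any (limma, adjusted p under 0.05, median log2 0.87, 2.78 and 3.21). Their summed counts were 874 at E18.5, 1340 and 1061 at P1, 1708 and 1920 at 2 weeks, and 14620 and 10308 at 12 weeks. Cd74, the invariant chain that cathepsin S cuts, read 180 and 169 counts at P1, 403 and 367 at 2 weeks and 3384 and 3657 at 12 weeks. H2-Aa and H2-Ab1, which encode the 2 chains of I-A, were 33.2-fold and 22.5-fold above P1 at 12 weeks (limma, adjusted p = 0.000285 and 0.000276). Without the library labelled P1 female, limma called 0 of the list from P1 to 2 weeks (1 at an unadjusted p under 0.05), 6 from 2 to 12 weeks and 6 over the whole span, all higher, with H2-Aa at 21.2-fold and H2-Ab1 at 22.6-fold. Zbtb46, a transcription factor of conventional dendritic cells and the fourth highest of the list, was not called in any of the 3 comparisons, and ranged from 519 to 687 counts.

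Mast cell genes ran the other way. Of 5 tested, 3 fell from P1 to 2 weeks, 4 from 2 to 12 weeks and 5 over the whole span (median log2 -1.77, -1.42 and -3.44), with sums of 2089 and 2216 at P1, 784 and 710 at 2 weeks, and 245 and 301 at 12 weeks. Cpa3, a protease of mast cell granules and the highest of the list, was 10.8-fold lower at 12 weeks than at P1 (limma, adjusted p = 0.000285). Without the library labelled P1 female the counts were 0 (3 at an unadjusted p under 0.05), 2 and 4, and Cpa3 was 12.6-fold lower (adjusted p = 0.0186).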
